A study of Mus musculus with 21 samples.

Results

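Dendritic cells lacking RelB were compared with wild-type (WT) cells before, and 1 h after, the addition of a Toll-like receptor ligand. The comparison used 6 of the 21 arrays of the study: the relb-/- and the WT array in each of the 3 earliest conditions, chosen by genotype, agent and time from the sample labels and paired by condition. All cells were bone marrow-derived dendritic cells (BMDCs), antigen-presenting cells grown in culture from marrow progenitors of C57Bl6 mice. The 3 WT arrays and the 3 relb-/- arrays were from unstimulated cells at 0 h, cells after 1 h with CpG and cells after 1 h with Pam3CSK4. The study also holds crel-/-relb-/- cells, which lack c-Rel as well as RelB, in the same 3 conditions (3 arrays), and 8 relb-/- and WT arrays at 8 and 24 h. The labels give neither the age of the mice nor which part of each gene was disrupted. Each genotype and condition had 1 array, and nothing says whether arrays came from separate cultures or animals. The 3 conditions therefore stood in for replicates, and every p-value reflects agreement over conditions, not the spread between animals. The spread behind it was also estimated with the crel-/-relb-/- arrays and drew on the other genes tested.

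RelB is a subunit of NF-kB, a family of dimeric transcription factors that carry signals from cytokine and pattern-recognition receptors to the nucleus. It is best known from the non-canonical pathway, in which the kinase NIK starts the processing of p100 (gene Nfkb2) to p52, its usual partner, and it is needed for the development and maturation of several dendritic cell subsets in mice. CpG DNA is sensed by TLR9 and the lipopeptide Pam3CSK4 by TLR2 with TLR1. Type I interferons such as interferon beta act through the receptor IFNAR and the transcription factor complex ISGF3, which binds the interferon-stimulated response element (ISRE) in antiviral genes.

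RNA levels were read from the normalized intensities that the authors deposited, which are linear values. Whether a background was subtracted is not stated, but no value lay near 0, and if a background remains the fold of a dim gene is too small. The medians of the 6 arrays were 47.2 to 47.4, the median of all values was 47.3, and no 2 arrays held identical values. The number of arrays limits the precision. Of 16593 named genes, 9415 (56.7%) were bright enough to be tested. A gene was called at a Benjamini-Hochberg adjusted p under 0.05 in limma, over all genes tested. All differences below are relb-/- minus WT on the log2 scale, as the mean of the pairs, unless stated otherwise. The standard error (SE) is that of the fit to the 9 early arrays. In a principal component analysis of the 9 early arrays, the first component (33.6% of the variance) placed the WT arrays at -3.05 to 5.61, between the relb-/- arrays at 8.04 to 16.4 and the crel-/-relb-/- arrays at -17.1 to -10.6. The second component (22.0% of the variance) placed the WT arrays at 11.4 to 14.1, the relb-/- arrays at -9.07 to -6.85 and the crel-/-relb-/- arrays at -6.29 to -3.79. Of the genes tested, 592 (6.29%) were higher and 505 (5.36%) lower in relb-/- cells, 1097 (11.7%) in all. The median difference over all genes was -0.0036, and 49.1% of genes lay above 0. At least a 2-fold difference was called for 47 genes higher (0.499%) and 26 lower (0.276%). The higher group was led by antiviral genes of the interferon response. Near the top of the lower group were clusterin, C1q subunits, the amino acid oxidase Il4i1 and transcripts of T cells, beside unlisted genes such as Slc4a8 and Robo4. Of the 26 lower genes 10 were in any gene or marker list used below, and of the 47 higher genes 33.

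The targeted gene was read first. Relb intensity was 160.0, 148.3 and 185.0 on the WT arrays (0 h, CpG, Pam3CSK4, the order used throughout) and 65.9, 75.0 and 95.9 on the relb-/- arrays. The groups did not overlap, every relb-/- array remained above the median of all values, and the difference was -1.07 ± 0.11 (SE, n = 3 pairs, limma adjusted p = 2.38e-05). The sources used here do not place the Relb probe relative to the disruption, which makes it only a partial check of the labels. Rel, which encodes c-Rel and is intact in relb-/- cells, read 127.5, 132.5 and 206.5 in WT cells and 119.4, 128.6 and 214.1 in relb-/- cells, a difference of -0.03 ± 0.16 that was not called. In crel-/-relb-/- cells Rel read 38.8, 39.6 and 33.6.

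Promoters of 4 of the higher genes are shown because they hold the motifs searched for: Isg15 and Ifit3 the ISRE core, Ifnb1 and Cxcl1 the kB motif. Isg15 encodes a ubiquitin-like modifier, Ifit3 a cytosolic antiviral protein, Ifnb1 interferon beta and Cxcl1 a chemokine that attracts neutrophils. The sequences run 5′ to 3′ from 250 bases before to 50 after the gene start in RefSeq (GRCm38.p6), at chr4:156200769-156201068 on the minus strand for Isg15, chr19:34583279-34583578 on the plus strand for Ifit3, chr4:88522745-88523044 on the minus strand for Ifnb1 and chr5:90890995-90891294 on the plus strand for Cxcl1. Capitals mark matches, on either strand, to the ISRE core (GAAA, any 2 bases, GAAA), to kB (GGGA, any 2 bases, TTCC) or to AP-1 (TGANTCA).
Isg15: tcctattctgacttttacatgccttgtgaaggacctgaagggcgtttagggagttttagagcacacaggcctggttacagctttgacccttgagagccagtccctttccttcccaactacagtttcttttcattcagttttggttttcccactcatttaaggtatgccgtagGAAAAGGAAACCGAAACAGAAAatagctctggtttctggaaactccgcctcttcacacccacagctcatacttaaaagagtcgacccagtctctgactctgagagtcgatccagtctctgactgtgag
Ifit3: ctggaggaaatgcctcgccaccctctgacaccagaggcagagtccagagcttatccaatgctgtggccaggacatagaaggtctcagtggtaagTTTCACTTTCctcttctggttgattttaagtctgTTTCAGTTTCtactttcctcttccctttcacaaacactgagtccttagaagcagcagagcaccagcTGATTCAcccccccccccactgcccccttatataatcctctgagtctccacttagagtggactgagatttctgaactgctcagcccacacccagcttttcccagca
Ifnb1: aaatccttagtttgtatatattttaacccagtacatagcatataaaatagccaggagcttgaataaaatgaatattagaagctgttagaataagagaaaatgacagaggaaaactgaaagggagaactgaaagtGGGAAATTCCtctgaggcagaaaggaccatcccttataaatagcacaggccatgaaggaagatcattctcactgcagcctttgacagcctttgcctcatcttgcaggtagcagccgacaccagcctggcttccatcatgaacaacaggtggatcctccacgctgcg
Cxcl1: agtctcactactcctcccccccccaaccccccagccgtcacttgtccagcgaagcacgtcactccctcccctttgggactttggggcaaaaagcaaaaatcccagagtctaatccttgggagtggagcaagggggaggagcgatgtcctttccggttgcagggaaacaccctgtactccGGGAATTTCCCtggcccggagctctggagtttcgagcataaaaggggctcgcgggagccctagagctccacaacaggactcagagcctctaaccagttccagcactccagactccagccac

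The Isg15 window held 3 overlapping ISRE cores, that of Ifit3 2 ISRE cores and 1 AP-1 motif, that of Ifnb1 1 kB motif, and that of Cxcl1 2 overlapping kB matches. A promoter was at hand for 38 of the 47 genes at least 2-fold higher, and 15 of these (39.5%) held an ISRE core, against 4.04% of the 7693 tested genes with a promoter and 3.99% of all 27025 promoters. The kB motif was in 4 of the 38 (10.5%), against 1.69% of tested and 1.63% of all promoters, and the AP-1 motif in 6 (15.8%), against 7.11% and 8.97%. Of the 18 promoters at hand among the 26 genes at least 2-fold lower, 0 held the ISRE core, 0 the kB motif and 2 (11.1%) the AP-1 motif. Among all called genes, the ISRE core was in 9.63% of 488 promoters of higher genes and in 2.71% of 406 of lower genes. A match describes these letters in these windows and is not evidence of binding.

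Interferon beta itself was among the higher genes. Ifnb1 read 38.3, 34.6 and 51.9 in WT cells and 102.1, 96.9 and 98.9 in relb-/- cells. All 3 relb-/- arrays lay above all 3 WT arrays, of which only the Pam3CSK4 array exceeded the median of all values. The difference was 1.28 ± 0.11 (2.42-fold, adjusted p = 3.74e-06), already present without a ligand. Its probe passed the brightness filter through the relb-/- arrays, and the adjusted p was 2.56e-07 with no filter. In crel-/-relb-/- cells Ifnb1 read 35.5, 39.7 and 36.7.

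Of 23 genes listed for interferon induction and receptor signalling, 17 were tested, 11 were higher, 1 was lower, and the median difference was 0.67 (all genes -0.0036, 6.29% higher). Irf7, the factor that amplifies type I interferon production, read 41.4, 42.7 and 40.6 in WT cells, all below the median of all values, and 143.1, 115.8 and 133.8 in relb-/- cells. Its difference was 1.65 ± 0.10. It was the only one of the 47 2-fold higher genes at or below that median on all WT arrays, and it passed the brightness filter through the relb-/- arrays alone, so its call is not independent of that filter (adjusted p = 2.01e-09 with no filter). Stat2 and Irf9, which encode subunits of ISGF3, were higher by 1.07 ± 0.09 and 1.02 ± 0.08, as was the receptor-associated kinase Jak1 by 0.71 ± 0.11. The RNA sensors Ddx58 (RIG-I, 1.35 ± 0.08), Ifih1 (MDA5, 0.67 ± 0.09) and their regulator Dhx58 (LGP2, 1.85 ± 0.09) were called, and so were the kinases Ikbke (0.65 ± 0.09) and Tbk1 (0.32 ± 0.07), which phosphorylate interferon regulatory factors. Usp18, which removes ISG15 from proteins and damps IFNAR signalling, rose from 560.8, 424.0 and 505.5 to 2563.3, 2044.7 and 2370.3, or by 2.23 ± 0.07.

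One member of that list went the other way. Irf1, a transcription factor induced by interferon gamma and by Toll-like receptors, read 1143.8, 2074.7 and 3801.1 in WT cells and 785.9, 1087.1 and 2145.3 in relb-/- cells. Both genotypes were brightest with Pam3CSK4, so the ranges overlapped, but the relb-/- array was lower in each pair, by 0.77 ± 0.10 on average (log2 difference -0.77, adjusted p = 0.000128). Irf3, Irf5, Ifnar2, Tyk2 and Mavs, with differences of -0.16 to 0.20, were not called.

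The interferon-stimulated effectors moved furthest. Of 50 genes listed, 39 were tested, 34 were higher and 0 lower (1 lower under quantile normalization), 22 of them at least 2-fold, with a median difference of 1.04. With no filter on brightness, 35 of the 44 on the array were higher and 0 lower. The groups did not overlap for 36 of the 39, against 24% of all genes tested. Oasl2, an oligoadenylate synthetase-like antiviral protein, read 155.0, 156.3 and 151.2 in WT cells and 1548.2, 1270.8 and 1634.1 in relb-/- cells, a difference of 3.26 ± 0.09 (9.57-fold, adjusted p = 9.76e-11). Its levels were flat over the 3 conditions in WT cells and high in all 3 in relb-/- cells. Isg15 read 57.3, 75.7 and 88.7 against 639.1, 678.0 and 718.6, a difference of 3.22 ± 0.11 (9.32-fold, adjusted p = 2.65e-10). Rsad2 encodes viperin, an enzyme that makes a chain-terminating nucleotide. It read 143.4, 183.8 and 160.1 against 1444.4, 1353.2 and 1244.0, a difference of 3.06 ± 0.10. Ifit3 read 56.5, 51.5 and 54.6 against 441.2, 411.2 and 385.9, a difference of 2.93 ± 0.08. The other 2 passing probes of Ifit3 gave 0.70 and 0.82, and the mean of its probes 1.48. The other passing probe of Oasl2 gave 1.52.

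The same list held other families. Among the oligoadenylate synthetases, which activate RNase L, Oas1g differed by 1.80 ± 0.08, Oas3 by 1.34 ± 0.09, Oas2 by 0.73 ± 0.10 and Oas1a by 0.54 ± 0.10, and the related Oasl1, known to repress Irf7 translation, by 2.63 ± 0.11 (1.74 for the mean of its probes). The antiviral GTPases Mx2 (1.25 ± 0.09) and Mx1 (1.03 ± 0.14), the RNA-dependent kinase gene Eif2ak2 (1.34 ± 0.09) and Ifit2 (2.49 ± 0.15) were higher as well. The immunity-related GTPases Ifi47 (1.12 ± 0.11), Irgm2 (0.93 ± 0.08), Igtp (0.79 ± 0.09) and Irgm1 (0.65 ± 0.07, or 1.11 for the mean of its probes), best known as targets of interferon gamma, were higher by smaller amounts. Of the guanylate-binding proteins, Gbp5 was higher by 0.53 ± 0.11, while Gbp2 (-0.21 ± 0.07), Gbp3 (0.28) and Gbp7 (0.05) did not pass the test. Zbp1 and Ifi205, both at 0.22, also did not pass. Genes of the interferon lists made up 29 of the 47 2-fold higher genes (61.7%), and none of the 26 2-fold lower ones. These lists held 17 and 39 of the 9415 genes tested, and were chosen with earlier results of these data known.

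**Figure D1:**
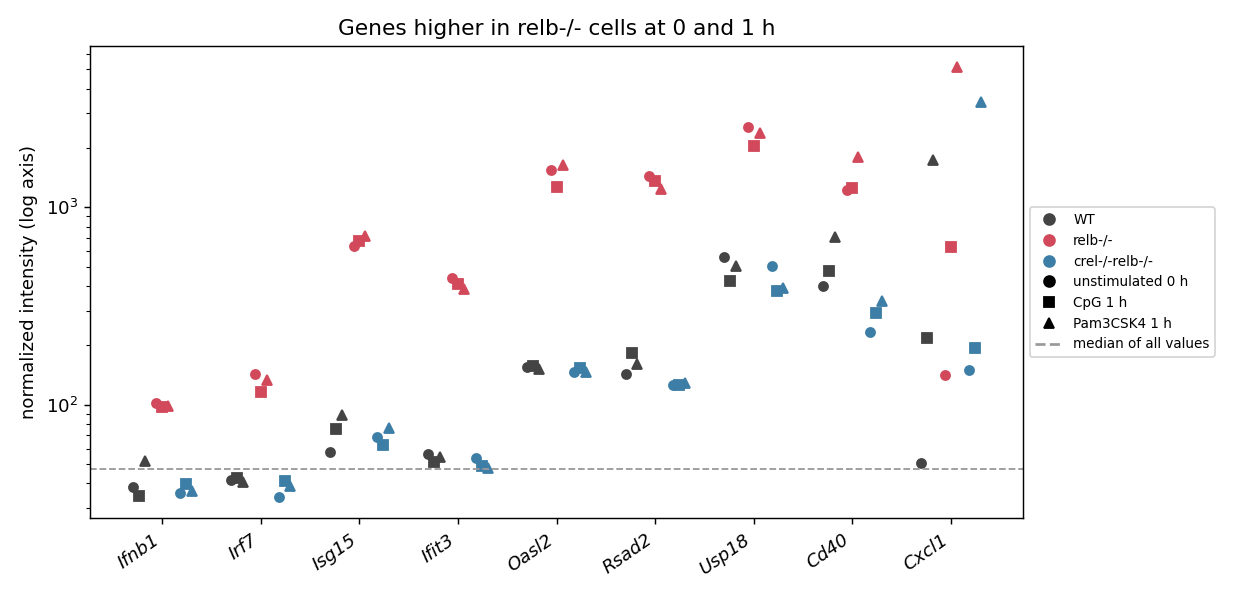
Normalized intensity (log axis) of 9 genes higher in relb-/- cells, 1 point per array: grey WT, red relb-/-, blue crel-/-relb-/-, with circles for unstimulated 0 h, squares for CpG 1 h and triangles for Pam3CSK4 1 h. For all genes but Cxcl1 the 3 red points lie above the 3 grey ones, and the dashed line is the median of all values, 47.3.

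The doubly deficient cells share none of these relb-/- arrays but are compared with the same 3 WT arrays, so their differences from WT are given only side by side. In crel-/-relb-/- cells Oasl2 read 147.0, 153.1 and 146.4, Isg15 68.9, 62.5 and 76.5, and Irf7 34.2, 41.1 and 38.6. These lay close to the WT levels, with crel-/-relb-/- minus WT differences of -0.05, -0.07 and -0.13. Over the 39 effectors the median crel-/-relb-/- minus WT difference was -0.11, with 3 members higher and 10 lower (background 8.21% and 7.19%). Il15, a cytokine that sustains natural killer cells and memory T cells, read 356.7, 363.7 and 350.7 in WT, 669.4, 638.3 and 660.8 in relb-/-, and 211.0, 190.5 and 192.3 in crel-/-relb-/- cells.

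Cell surface and secreted products of activated dendritic cells were split between directions. Cd40, a costimulatory receptor of the TNF receptor family that also feeds the non-canonical pathway, read 400.6, 477.2 and 709.9 in WT cells and 1227.3, 1253.9 and 1799.2 in relb-/- cells, a difference of 1.45 ± 0.09 (2.73-fold, adjusted p = 1.23e-07). Every relb-/- array lay above every WT array, while the other passing probes of Cd40 gave -0.00, 0.39 and 1.17. Of 21 maturation and costimulation genes tested, 5 were higher and 5 lower (6.29% and 5.36% of all genes), with a median of 0.10. The T cell ligands Cd80 (0.77 ± 0.09), Cd86 (0.63 ± 0.06) and Cd70 (0.49 ± 0.11) were higher with Cd40, and so was Ramp3 (0.33 ± 0.07). Relb itself, on this list, was 1 of the 5 lower. The actin-bundling protein gene Fscn1, a marker of mature dendritic cells, was lower by 0.71 ± 0.12, and Cd200, an inhibitory surface protein, by 0.42 ± 0.09. Marcksl1 was lower at 0 h and with CpG (850.1 and 1008.4 against 400.5 and 383.8) but not with Pam3CSK4 (898.3 against 903.0), and its call was lost without the CpG arrays (-0.54) and without the unstimulated arrays (-0.69).

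Il4i1, another of the maturation genes, encodes a secreted L-amino acid oxidase that breaks down phenylalanine. It read 2041.8, 1964.0 and 2304.8 in WT cells and 730.7, 670.2 and 780.9 in relb-/- cells, a difference of -1.53 ± 0.08 (adjusted p = 3.37e-08). It was the brightest gene among those at least 2-fold lower, and all relb-/- arrays lay far below all WT arrays. In crel-/-relb-/- cells it read 465.6, 563.8 and 607.9. Ccr7, the receptor that guides dendritic cells to lymph nodes, differed by -0.19 and Cd83 by -0.09, neither of which was called.

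Of 18 cytokines tested, 8 were higher and 2 lower (6.29% and 5.36% of all genes), with a median of 0.26. Besides Il15 (0.88 ± 0.08) these were Ebi3 (0.73 ± 0.09), the subunit shared by interleukins 27 and 35, Lta (0.71 ± 0.11), Tnfsf15 (0.62 ± 0.08), Il1b (0.55 ± 0.13), Il6 (0.38 ± 0.09), Il18 (0.34 ± 0.10) and the interleukin 1 antagonist Il1rn (0.29 ± 0.07, or 0.09 and not called for the mean of its probes). Ltb, which with Lta forms the lymphotoxin that binds LTBR, was lower (-0.46 ± 0.08), as was Tgfb1 (-0.39 ± 0.09). Without the unstimulated arrays 5 cytokines were called higher. Of 18 chemokines and receptors, 6 were higher and 1, Cxcl16, was lower (-0.48 ± 0.09), with 3 higher and 0 lower without the CpG arrays.

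Cxcl1 showed the widest range of any gene described here. It read 50.4, 217.8 and 1732.3 in WT cells and 141.0, 630.9 and 5121.0 in relb-/- cells. Pam3CSK4 raised it more than CpG in both genotypes, so the groups overlapped over conditions. Within each condition the relb-/- array was higher, with a mean difference of 1.53 ± 0.24 (2.88-fold, adjusted p = 0.00102), and the call was lost without the condition as a block (adjusted p = 0.633). Ccl3 (0.62 ± 0.09), Ccl5 (0.41 ± 0.06), Ccl4 (0.38 ± 0.08), Ccl22 (0.29 ± 0.08) and Ccl9 (0.20 ± 0.05), all ligands of CC receptors, were higher by less than 2-fold. Cxcl10, a classical interferon-induced chemokine, differed by 0.23 and was not called.

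Among the NF-kB genes most levels did not pass the test. Of 12 subunits and inhibitors, 2 were higher and 2 lower (6.29% and 5.36% of all genes), with a median of -0.02. Nfkb2, which encodes the p52 precursor p100, read 129.7, 113.7 and 159.7 against 99.8, 91.9 and 104.6 (-0.43 ± 0.10, adjusted p = 0.0125), and the nuclear IkB protein Bcl3 was lower by 0.60 ± 0.10. The deubiquitinase gene Tnfaip3 (A20) read 191.0, 768.6 and 2651.1 against 475.6, 1178.7 and 2709.3, so that the genotypes lay closest with Pam3CSK4 (0.65 ± 0.17, adjusted p = 0.0216), and Nfkbib differed by 0.36 ± 0.10. The calls of Tnfaip3 and Nfkb2 were lost under 4 and 3 of the 14 alternatives, with Tnfaip3 at 0.32 without the unstimulated arrays. Of 9 genes listed for the non-canonical pathway, only Cd40 was called, while Relb and Nfkb2, both called lower, were counted in other lists. Of 19 immediate-early genes, 5 were higher and 0 lower, led by Egr1 (0.73 ± 0.19) and Atf3 (0.53 ± 0.08), and of 18 Toll-like receptors and adaptors, Tlr2 (0.57 ± 0.14) and Myd88 (0.30 ± 0.07) were higher. Without the CpG arrays these 2 lists had 1 and 0 higher genes, and without the unstimulated arrays 0 NF-kB subunits or inhibitors were higher.

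Calls among antigen presentation genes were mostly lower for MHC class II and mostly higher for class I. Of 14 MHC class II genes, 6 were lower and 0 higher, with a median of -0.10 (5.36% of all genes lower). H2-Ab1, a class II beta chain, read 5952.8, 5475.6 and 6211.9 in WT cells and 3859.5, 4059.9 and 4135.7 in relb-/- cells. The groups did not overlap, and the difference was -0.55 ± 0.07 (adjusted p = 0.000131). H2-Eb1, the other class II beta chain, was lower by 0.59 ± 0.06, the invariant chain gene Cd74 by 0.34 ± 0.06, the peptide-exchange subunits H2-DMb2 by 0.70 ± 0.10 and H2-DMb1 by 0.35 ± 0.07, and the class II transactivator Ciita by 0.34 ± 0.10. H2-Aa, the alpha chain that pairs with H2-Ab1, differed by 0.09 and was not called. In crel-/-relb-/- cells H2-Ab1 read 6200.6, 7263.8 and 7567.7. Of 20 class I genes, 5 were higher and 2 lower (6.29% and 5.36% of all genes). Those higher were H2-D1 (0.64 ± 0.15), the peptide-loading gene Tapbp (0.37 ± 0.11), the class I transactivator Nlrc5 (0.34 ± 0.08), the proteasome activator subunit Psme2 (0.31 ± 0.08) and B2m (0.21 ± 0.06). The 2 lower were H2-M2 and Psmb10, whose calls were lost under 2 and 6 of the 14 alternatives. The higher calls of H2-D1, Tapbp, Nlrc5, Psme2 and B2m were lost under 2, 7, 4, 5 and 7 of the 14. Without the Pam3CSK4 arrays, 0 class I genes were called higher.

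The genes lower in relb-/- cells included a group of secreted proteins that bind dying cells and debris. Of 13 complement and scavenger genes tested, 7 were lower and 0 higher (5.36% and 6.29% of all genes), with a median of -0.23. Clu, the extracellular chaperone clusterin, read 233.2, 215.8 and 189.5 in WT cells and 66.1, 59.9 and 58.2 in relb-/- cells, a difference of -1.79 ± 0.09 (adjusted p = 2.97e-08). The B and C chains of C1q, which opens the classical complement pathway, fell together. C1qb read 416.6, 432.0 and 352.1 against 157.3, 127.6 and 121.6 (-1.57 ± 0.10), and C1qc 343.7, 319.6 and 266.5 against 108.3, 136.3 and 124.4 (-1.33 ± 0.11). The third chain, C1qa, lay near the median of all values on all arrays (55.7, 45.8 and 49.1 against 38.8, 38.7 and 43.8) and differed by -0.31 ± 0.08, a call lost when any 1 condition was left out (-0.38 to -0.20). Mfge8, a bridge between phosphatidylserine and phagocytes, was a bright gene at 6181.1, 5953.6 and 5749.0 against 3520.6, 3501.8 and 3118.6 (-0.82 ± 0.06). In crel-/-relb-/- cells C1qb read 311.2, 356.8 and 317.9 and Clu 44.5, 46.4 and 48.7, so that only Clu lay at its relb-/- level or below. Without the CpG or without the Pam3CSK4 arrays, 4 of the 13 genes were called lower. The lysozyme gene Lyz2 and the receptor gene Trem2 were also called lower, at -0.34 to -0.16 and -0.25 to -0.20 over the alternatives. Their calls were lost under 6 and 11 of the 14 alternatives.

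Irf8, the transcription factor that directs the development of type 1 conventional and plasmacytoid dendritic cells, read 289.3, 317.5 and 357.1 in WT cells and 140.8, 163.0 and 167.6 in relb-/- cells, a difference of -1.03 ± 0.08 (adjusted p = 2.12e-06). The highest relb-/- array was far below the lowest WT array, and crel-/-relb-/- cells read 141.6, 142.8 and 171.7. Of the 9 conventional dendritic cell markers tested, Irf8 was the only one lower and the lectin gene Clec10a the only one higher (0.58 ± 0.08). Over all genes, 5.36% were lower and 6.29% higher. Itgax (CD11c), Zbtb46, Batf3, Irf4, Sirpa, Cd24a and Id2 differed by -0.14 to 0.16 and were not called. The summed intensity of the 9 markers was 4564.9 to 5237.2 over the WT arrays and 5057.5 to 5385.9 over the relb-/- arrays, so these markers of the labelled cell type were present in both genotypes. In bulk RNA such as this, fewer cells of a type and less RNA per cell cannot be told apart.

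Transcripts of T and natural killer cells stood out among the lower genes. Of 11 tested, 7 were lower and 1 higher (5.36% and 6.29% of all genes), with a median of -0.38 and 3 above 0. Cd247, Prf1 and Il7r were not called. Trat1, a T cell receptor-associated adaptor, read 141.0, 203.8 and 187.3 in WT cells and 41.8, 46.1 and 47.1 in relb-/- cells, a difference of -1.96 ± 0.09 (adjusted p = 8.91e-09). The other passing probe of Trat1 gave -0.94. Trat1 would not have passed the brightness filter without the WT arrays, so its call is not independent of that filter. Cd3d, a subunit of the T cell receptor complex, read 113.0, 111.7 and 107.6 against 39.8, 41.6 and 45.9 (-1.39 ± 0.09), and Nkg7, a cytotoxic granule protein, 135.4, 112.0 and 126.4 against 41.2, 41.7 and 43.7 (-1.56 ± 0.09). All relb-/- arrays lay at or below the median of all values for these genes, where the fold would be understated by any remaining background. Cd3g was lower by 1.29 ± 0.11, Cd3e by 0.52 ± 0.07, Zap70 by 0.38 ± 0.09 (not called without CpG, -0.24, or without Pam3CSK4, -0.43) and Cd2 by 0.30 ± 0.07, while Klrd1 was higher by 0.28 ± 0.07. The summed intensity of the 11 markers was 1993.3 to 2249.2 over the WT, 1813.0 to 1921.8 over the relb-/- and 2048.1 to 2238.0 over the crel-/-relb-/- arrays.

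**Figure D2:**
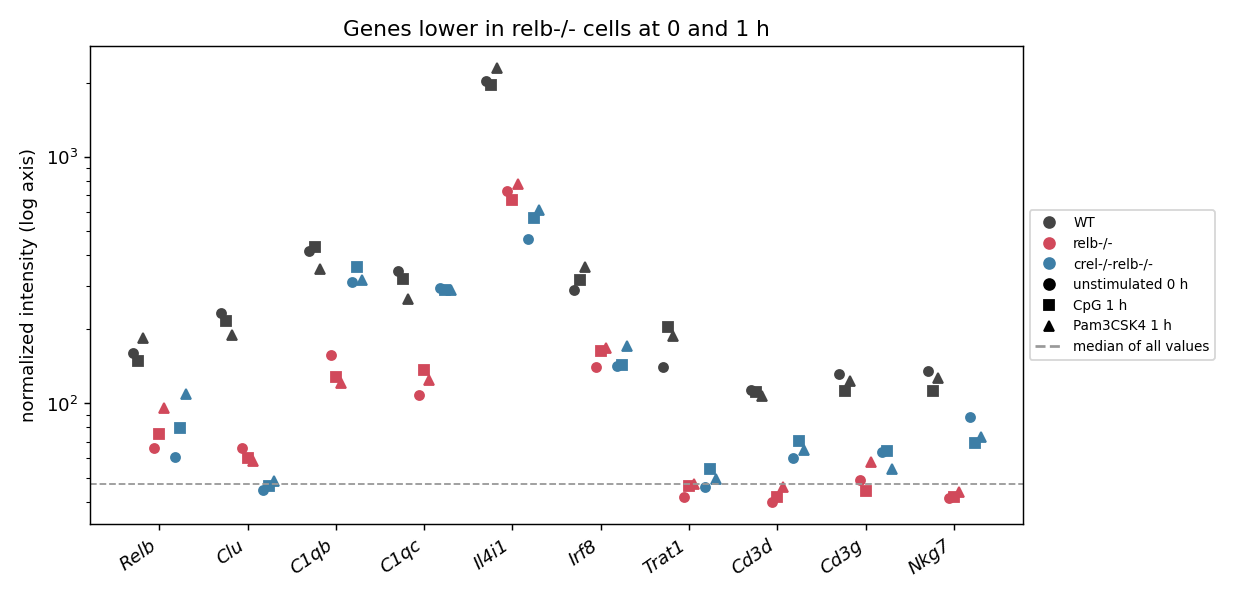
Normalized intensity (log axis) of 10 genes lower in relb-/- cells, 1 point per array with the colours and symbols of the plot of higher genes. The relb-/- points lie below the WT points for all 10 genes, and those of Trat1, Cd3d and Nkg7 lie at or below the median of all values (dashed line).

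Markers of further cell types moved as well, and their part in the results above was not tested. Of 12 neutrophil markers, 4 were higher and 1 lower (6.29% and 5.36% of all genes). Their summed intensities were 1617.8 to 1661.2 over the WT, 2182.4 to 2403.2 over the relb-/- and 3210.3 to 3334.6 over the crel-/-relb-/- arrays. The calprotectin subunit S100a8 read 339.0, 347.4 and 363.9 in WT, 825.1, 724.5 and 754.1 in relb-/-, and 1581.2, 1632.0 and 1613.0 in crel-/-relb-/- cells. Its relb-/- minus WT difference was 1.13 ± 0.08, that of its partner S100a9 1.17 ± 0.11 and that of Retnlg 0.66 ± 0.07. Lcn2 was the other marker called higher, and Mmp9 was the 1 called lower (-0.52). Granule genes of neutrophil precursors (Elane, Ngp, Ltf, Mmp8) differed by -0.18 to 0.31 and were not called.

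Of 9 macrophage and monocyte markers, 4 were lower and 1 higher (5.36% and 6.29% of all genes). The lower ones were C1qa, C1qb and C1qc, already counted among the complement genes, and Lyz2 (-0.25 ± 0.06). Lyz2 was not called for the mean of its probes (-0.16). Adgre1 (F4/80) was higher by 0.56 ± 0.10. The sums of the 9 were 25425.3 to 27396.1 over the WT and 21495.0 to 24280.8 over the relb-/- arrays. Without CpG or without Pam3CSK4, 2 were called lower. Plasmacytoid dendritic cells are a strong source of type I interferon. Of their 5 tested markers only Bst2, itself induced by interferon, was called (1.04 ± 0.13), and the defining lectin Siglech differed by -0.11. The sums of these 5 were 709.5 to 912.3 over the WT and 1038.4 to 1076.0 over the relb-/- arrays. Their median difference was 0.24, and the groups did not overlap for 3 of the 5 (24% of all genes tested). The part of plasmacytoid cells in the interferon results was not tested. None of the 3 B cell, 2 mast cell and basophil, 1 Langerhans-like or 1 stromal markers tested was called. Of the 5 eosinophil markers, 1 was lower (Epx, -0.25 ± 0.07), and of the 4 erythroid markers, 2 were higher, Car2 by 0.65 ± 0.12 and Hbb-bt by 0.43 ± 0.10.

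**Figure D3:**
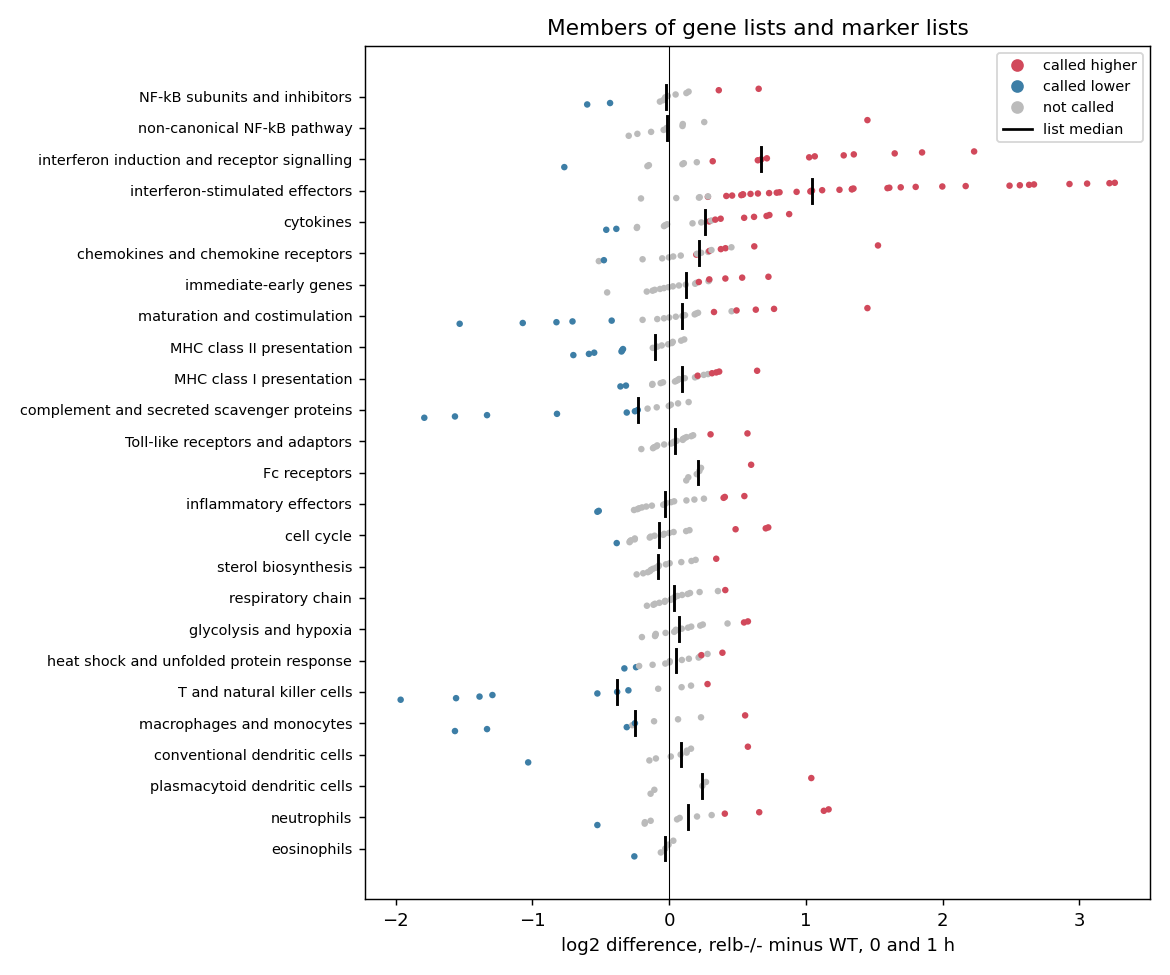
Log2 difference, relb-/- minus WT, of each tested member of the gene and marker lists with at least 5 tested members (1 point per gene, red called higher, blue called lower, grey not called, black bar the list median). The interferon lists have medians of 0.67 and 1.04, while those of all other lists drawn lie between -0.38 and 0.26.

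Metabolic and stress lists held calls in shares from 5.88% (respiratory chain) to 28.6% (heat shock), against 11.7% of all genes. Of 18 cell cycle genes, 3 were higher, among them the D-type cyclins Ccnd1 (0.72 ± 0.08) and Ccnd2 (0.71 ± 0.07) with the replication clamp Pcna (0.49 ± 0.11), and Tyms was lower (-0.38 ± 0.09, or -0.10 and not called for the mean of its probes). Of 16 glycolysis and hypoxia genes, Vegfa (0.58 ± 0.09) and Egln3 (0.55 ± 0.07) were higher and 0 were lower. Of 15 sterol genes 1 was higher, Insig1 (0.34 ± 0.10), and of 17 respiratory chain genes 1, Cox6c (0.41 ± 0.07). Of 14 heat shock and unfolded protein response genes, Atf4 (0.39 ± 0.09) and Xbp1 (0.24 ± 0.06) were higher and Herpud1 (-0.33 ± 0.08) and Bag3 (-0.24 ± 0.07) lower. The calls of Insig1, Xbp1 and Bag3 were lost under 9, 7 and 10 of the 14 alternatives. Among 19 inflammatory effectors, Casp4 (0.55 ± 0.08), Lcn2 (0.41 ± 0.08) and Gch1 (0.40 ± 0.10) were higher, and Mmp9 (-0.52 ± 0.09) and Saa3 (-0.51 ± 0.08) lower. Of 6 Fc receptors, the inhibitory receptor Fcgr2b was higher (0.60 ± 0.11), and not called without the Pam3CSK4 arrays (0.39).

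**Figure D4:**
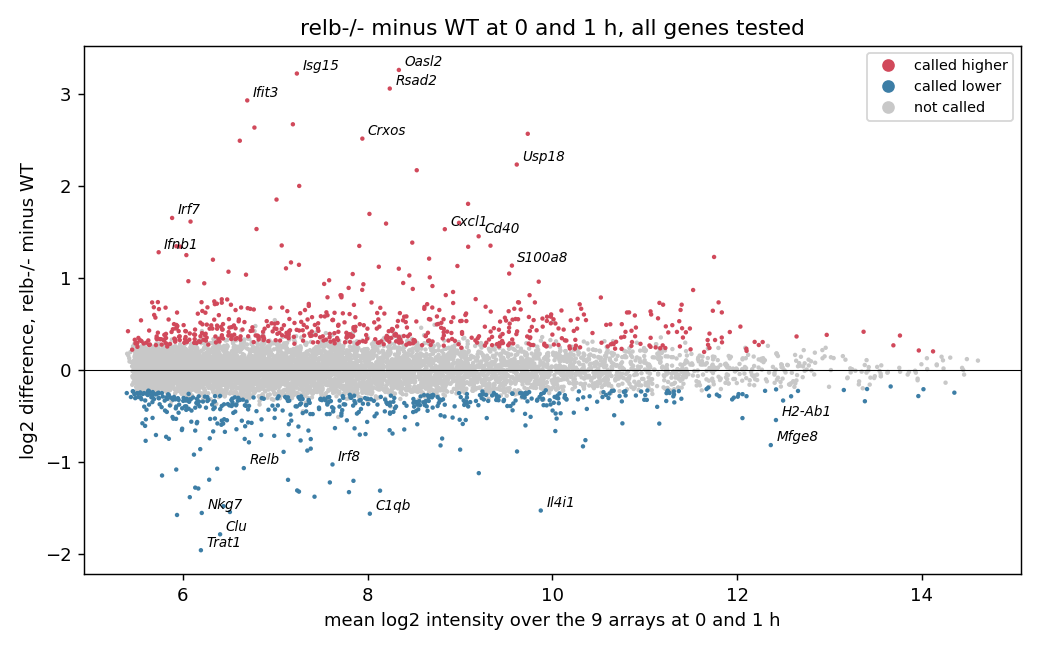
Log2 difference, relb-/- minus WT, against the mean log2 intensity over the 9 arrays at 0 and 1 h, 1 point for each of the 9415 genes tested. Red and blue points are the 592 genes called higher and the 505 called lower, and the most extreme differences are positive.

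Some genes beyond the lists differed as much. Crxos read 65.3, 60.9 and 69.8 in WT cells, 354.2, 354.7 and 410.5 in relb-/- cells and 601.1, 622.2 and 614.8 in crel-/-relb-/- cells, a relb-/- minus WT difference of 2.51 ± 0.08. It lies 45 tested genes from Relb in RefSeq gene order. Clasrp, the nearest tested gene on the same side of Relb, read 106.0, 139.9 and 134.7 in WT cells, 53.9, 47.4 and 64.9 in relb-/- cells and 72.0, 60.9 and 72.7 in crel-/-relb-/- cells (-1.20 ± 0.12). Of the 40 tested genes nearest to Relb, 20 on each side, 3 were higher and 5 lower (20%, against 11.7% of all genes). Slfn1, a Schlafen gene, was higher by 1.69 ± 0.08. The transcription factor Satb1 read 181.0, 252.5 and 305.8 against 91.2, 95.3 and 104.8 (-1.31 ± 0.12), and F2r, the thrombin receptor, 260.3, 265.4 and 291.9 against 108.5, 100.9 and 104.2 (-1.38 ± 0.10). Robo4, Scin, Slc4a8, Ogfrl1 and Dmrta2 were lower by 1.32 to 1.58. Slc4a8 passed the brightness filter through the WT arrays alone, so its call is not independent of that filter. For Robo4 the other passing probe gave 0.09 and the mean of both -0.73.

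The genotype difference was present in the unstimulated pair as well as after 1 h. At least a 2-fold difference, without a test, was seen for 55 genes higher and 25 lower in the unstimulated pair, 56 and 27 with CpG, and 51 and 29 with Pam3CSK4. The median over the 39 interferon-stimulated effectors was 1.07, 1.09 and 1.16. Across genes, which are not independent replicates, the differences of the unstimulated pair correlated with those of the CpG pair at Pearson r = 0.597 and with those of the Pam3CSK4 pair at r = 0.568, and the CpG and Pam3CSK4 pairs at r = 0.626. Spearman's rho was 0.403, 0.353 and 0.424. These pairs share no array. The test of the difference between 1 h and 0 h called 0 genes in limma (296 at an unadjusted p under 0.05), with 1 pair at 0 h and 2 pairs at 1 h. Its 10 extreme values, none of them called, lay between -1.28 (Ywhag) and 1.67 (H3c14).

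The early response to the ligands was compared between genotypes without a test. For Pam3CSK4, 45 genes rose at least 2-fold from 0 h to 1 h in the mean of both genotypes. Their median log2 rise was 1.76 in WT and 1.84 in relb-/- cells, larger in relb-/- cells for 25 and smaller for 20. Of these genes 13 were called higher and 2 lower between the genotypes (6.29% and 5.36% of all genes). For CpG, 16 genes rose that far, by a median of 1.72 in WT and 1.39 in relb-/- cells, larger in relb-/- cells for 7 and smaller for 9, and 4 of them were called higher and 0 lower. Both rises of a genotype are measured against its single array at 0 h.

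The early difference was then set against that of the 8 relb-/- and WT arrays at 8 and 24 h, which are other arrays. The late minus early difference was called for 12 genes (0.127%), 7 above 0 (0.0743%) and 5 below 0 (0.0531%), of which 1 to 4 remained called with an early condition left out. Oasl2 fell from 3.26 to a mean of 0.72 at late times, where its 4 pairs gave -0.10 (CpG 8 h), 1.12 (CpG 24 h), 0.49 (Pam3CSK4 8 h) and 1.37 (Pam3CSK4 24 h), a change of -2.54 (adjusted p = 0.0299). Trat1 moved from -1.96 to -0.85. Fcgr2b moved from 0.60 to -0.39 (adjusted p = 0.0298). For the other tested genes of the interferon lists the change was not called, and the late pairs differed widely among themselves. Isg15 gave 0.41 and 0.69 at 8 h and 2.09 and 2.71 at 24 h (CpG before Pam3CSK4), and Rsad2 0.35 and 1.44 at 8 h and 2.21 and 3.25 at 24 h. Ifnb1 differed by 1.84 and 1.90 at 8 h and 3.55 and 2.77 at 24 h, a mean of 2.52 against 1.28 early, a change that was not called (adjusted p = 0.447).

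All 47 2-fold higher genes had a positive mean late difference and all 26 2-fold lower ones a negative one, with medians of 0.97 and -1.09. The late difference was smaller in size for 41 and for 23 of them, which choosing genes by their early difference favours. Clu (-1.62), C1qb (-1.32), Il4i1 (-1.26) and Irf8 (-0.76) remained below WT on average at late times.

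**Figure D5:**
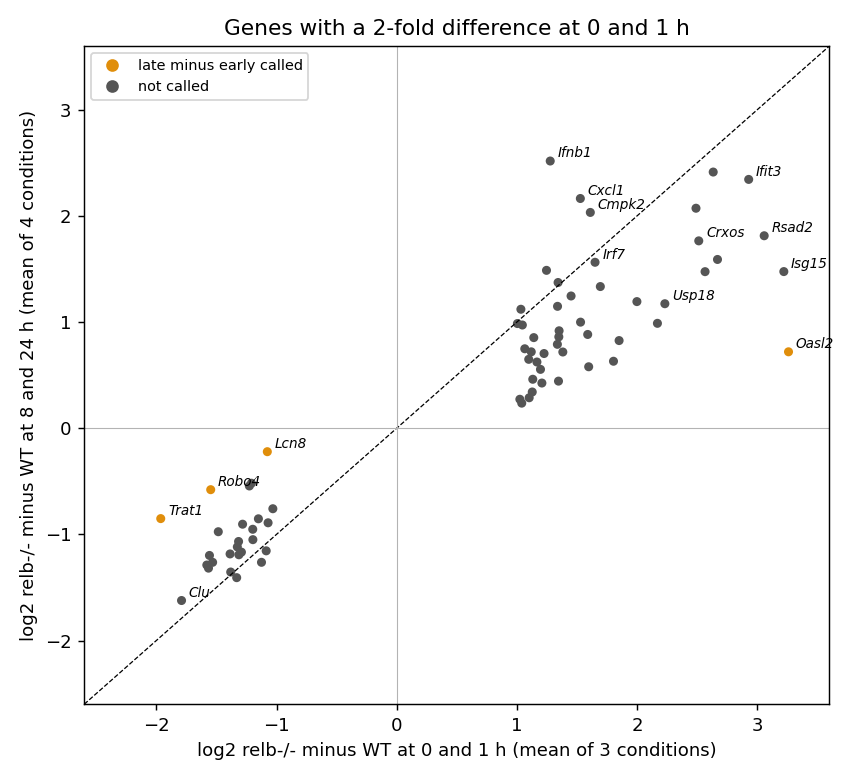
Mean late difference (8 and 24 h, 4 conditions) against mean early difference (0 and 1 h, 3 conditions) of relb-/- minus WT on the log2 scale, for the 73 genes with at least a 2-fold early difference. Points on the dashed line have equal differences, and orange marks genes whose late minus early change was called (Oasl2, Trat1, Robo4 and Lcn8).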

How the data were processed

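Total RNA of bone marrow-derived dendritic cells was extracted on columns, amplified to biotin-labelled cRNA and hybridised to Illumina arrays, per the labels' protocols. The values are the authors' deposited normalized intensity for 25697 probes on each of 21 arrays, whose medians lay between 47.1 and 47.4. The sources used here do not name the normalization, and no detection p-values were used. A further table holds unnormalized signals in 21 columns whose names could not be tied to any sample, and was left out.

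From these intensities log2 values were computed, with no further normalization. Gene names came from the platform annotation (23978 with 1 gene, 1719 unnamed), with 23962 symbols updated by Entrez identifier through RefSeq. A probe was kept when the 3rd highest of its 9 early log2 values exceeded the overall median, and a gene was represented by its kept probe with the highest mean. Of 2479 genes with several kept probes, 2 had probes called in opposite directions.

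limma 3.58.1 in R 4.3.3 (lmFit, eBayes with an intensity trend, two-sided) was fitted to the 9 arrays at 0 and 1 h of all 3 genotypes with condition and genotype as terms (4 residual degrees of freedom). The crel-/-relb-/- arrays contributed to the spread, the brightness filter and the choice of probe, but not to the relb-/- minus WT difference of a probe. From all genes tested, eBayes added 9.32 prior degrees of freedom. Late minus early and 1 h minus 0 h differences were interactions fitted on all 21 arrays with 10 and 8 residual degrees of freedom. Benjamini-Hochberg adjustment covered 9415 genes. The fit was tested on simulated data with independent noise on each array, which cannot show how it fares where conditions stand in for replicates. An exact swap of genotypes within 3 pairs cannot give a p below 0.25 and was not used. List members were described by counts and medians, with no set test. Summaries were made in Python 3.11.15.

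The genes named were Relb, Rel and Ifnb1, the 20 most positive and 20 most negative called differences with the same sign in 3 conditions, called list members, each list's extremes, and the most changed genes of both interactions. The comparison, gene lists and markers were chosen with earlier results of these data known. Alternatives varied the arrays behind the spread, the condition block, the filter, an added offset of 16, the normalization (normexp with an offset of 50 and quantile, quantile alone, cyclic loess), the intensity trend, the probe summary, and each condition left out.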

Additional observations from a re-analysis of the deposited data

Results flagged for a closer look

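The relb-/- minus WT difference of 12 genes changed between the early conditions (0 and 1 h) and the late ones (8 and 24 h) by limma's interaction test, with adjusted p-values of 7.15e-05 for Trat1, 0.0105 for Lcn8 and 0.0298 to 0.0396 for the others. Of these 12 calls, 8 were lost without CpG 1 h, 11 without Pam3CSK4 1 h, 11 without unstimulated 0 h and 9 without an intensity trend. The change was a log2 difference, late minus early. It was above 0 for Trat1 (1.11), Calhm6 (0.976), Robo4 (0.968), Pou4f1 (0.888), Lcn8 (0.855), H3c7 (0.770) and Pla2g4f (0.710). It was below 0 for Oasl2 (-2.54), Fcgr2b (-0.993), Fcrla (-0.648), Rdm1 (-0.597) and Ms4a8a (-0.588).

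Trat1, Robo4 and Lcn8 lay below WT at both times, and by less at the late ones (-0.85, -0.58 and -0.22 after -1.96, -1.55 and -1.08). Calhm6, which was 0.75 below WT at the early times (log2 difference -0.75), lay at 0.22 at the late ones. Fcgr2b, an inhibitory Fc receptor, went from 0.60 to -0.39. Of the 12 genes, Pou4f1, Pla2g4f and Rdm1 were not called at the early times (-0.32, -0.12 and 0.14).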

How the results depend on the processing

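The 1097 calls (592 higher, 505 lower) became 450 (243 and 207) when the spread came from all 21 arrays and 592 (322 and 270) without the condition as a block. Of these, 449 and 592 were among the 1097. With the spread from the 6 relb-/- and WT arrays alone, the lower calls became 334. Leaving out 1 condition gave 538 to 714 calls, 333 to 405 higher and 197 to 309 lower, the fewest without CpG, with fewer arrays in the fit. The 73 genes with a 2-fold difference became 57 to 75 under the alternatives. Of the 39 interferon-stimulated effectors, 34 were higher, and 22 with the spread from all 21 arrays, and of 13 complement genes 7 were lower, and 4 with that spread or without CpG or Pam3CSK4. The 12 late minus early calls became 3 without an intensity trend, 20 without the crel-/-relb-/- arrays (10 shared) and 1 to 4 with an early condition left out, 1 without unstimulated 0 h. The cause was not tested for these changes. The 1 h minus 0 h test called 0 genes under the alternatives run, and could not be fitted without 0 h. Of the 195 named genes, which include genes not called, 40 lost their call without CpG, 36 without Pam3CSK4 and 31 without the unstimulated arrays. No called gene changed sign, while some uncalled ones did, such as Nt5c (-0.52 to 0.51). An alternative on the unnormalized table was not run, because its columns could not be tied to samples. No detection p-values were used, so signal over background limits 7 of the 26 2-fold lower genes, which lay at or below the median of all values on all relb-/- arrays.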
